A study of Mus musculus with 8 samples.

Results

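The genes of the proteasome, the protease complex that degrades ubiquitin-tagged proteins, were examined in the livers of ethanol-fed mice with and without delivery of the long non-coding RNA H19. The members were all protein-coding genes of the deposited count table whose mouse symbol starts with Psm, followed by a letter from a to g and a digit. This rule found 50 of the 55450 genes in the table, of which 21951 are protein-coding. One of them, Psmc3ip, matches by its name only and encodes a factor of meiotic recombination. A total of 49 members passed the filter on low counts, beside 16672 genes in all. Psmb11, the catalytic subunit of the thymus form of the proteasome, was at 0 in all 8 libraries. This allows up to 0.188 CPM (scaled counts, defined below) in the smallest library, if a count is worth 4 of the deposited units.

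Poly(A) RNA was sequenced from 8 mouse livers, and all 8 mice had received an ethanol diet. In the AAV-H19 group, 4 mice (numbers 25 to 28) carried an adeno-associated virus (AAV) named for H19. In the AAV-Null group, 4 mice (numbers 21 to 24) carried the comparison virus. The labels give neither the strain, age and sex of the mice nor the virus dose, promoter and insert, and no group on a control diet was analysed here. Each liver has its own number in the labels, which name no litter, cage or batch, so the p-values rest on the spread between these livers, whatever its source.

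The proteasome consists of a barrel-shaped core particle, the 20S, and caps that bind to its ends. The outer rings of the core are built from alpha subunits, which gate the entry. The inner rings are built from beta subunits, and only the products of Psmb5, Psmb6 and Psmb7 cut proteins there. Interferon induces Psmb8, Psmb9 and Psmb10, which replace these sites in the immunoproteasome, a form that favours peptides for presentation on MHC class I. The 19S cap has a base of ATPases that unfold the substrate and a lid that removes the ubiquitin chain. Liver uses the proteasome to turn over regulatory and damaged proteins, and chronic ethanol feeding is known to lower its activity in rodent liver.

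Values below are CPM, the deposited estimated counts scaled to a common library total with edgeR's trimmed mean of M values (TMM), and changes are log2 fold changes of AAV-H19 over AAV-Null from edgeR's quasi-likelihood test with Benjamini-Hochberg adjustment over all 16672 genes. H19 was at 0.142 to 1.41 CPM in the 4 AAV-Null livers, while AAV-H19 livers had 104 to 155 CPM, so each library matched its label. Library totals were 63.7 M to 82.99 M units, where a count may be worth 4 units, though the size of a unit is not known. Across protein-coding genes the change depended on transcript length: the median log2 change was -0.96 for transcripts of up to 1000 nt and 0.44 for those over 5000 nt. Spearman's rho between a gene's relative level and its length, as a description across genes, was -0.434 to -0.131 in the AAV-Null libraries and 0.239 to 0.484 in the AAV-H19 libraries. A second fit, called the length offset here, therefore removed each library's own trend with transcript length, and its values are given beside those of the first fit for the genes described. A difference between the groups that itself follows length cannot be told apart from a technical trend in these files. Among markers of liver cell types, 6 of 10 Kupffer cell genes fell, all 10 had negative log2 changes, and their summed level was 231 to 406 CPM in AAV-Null livers, beside 148 to 210 CPM in the AAV-H19 group; 1 of them, Clec4f, also fell with the length offset. The 5 hepatocyte markers, the defining genes of the labelled tissue, summed to 78460 to 117500 CPM in AAV-Null livers, beside 109700 to 121000 CPM in the AAV-H19 group, and 1 of them, Cps1, rose (log2 change 1.38, adjusted p = 0.0102 by edgeR). Cps1 did not pass with the length offset (log2 change 0.95, adjusted p = 0.0722 by edgeR). Of 5 endothelial markers 1 fell and 1 rose, and of 4 stellate markers 0 passed by edgeR, with 1 at an unadjusted p under 0.05. With the length offset, 0 endothelial and 0 stellate markers passed. In bulk liver, fewer cells of a type and less RNA per cell cannot be told apart.

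Of the 49 tested proteasome genes, 12 fell in AAV-H19 livers and 0 rose at an edgeR adjusted p of 0.05, while 37 did not pass. Those that fell were genes of the core, the immunoproteasome, the assembly chaperones and the PA28 activator. Over all genes tested, 6.07% fell and 5.6% rose. The 12 genes were Psmb1, Psmb4, Psmb5 and Psmb6 of the constitutive core, Psmb8, Psmb9 and Psmb10 of the immunoproteasome, the chaperones Psmg1, Psmg2, Psmg3 and Psmg4, and the activator gene Psme2. At an unadjusted p under 0.05, 29 members were lower and 1, Psme3, was higher, beside 4968 of all 16672 genes in either direction. The log2 change was negative in 41 of 49 members, beside 8527 of all 16672 genes. The median was -0.61 over the members, beside -0.02 over all genes. DESeq2 called 22 members lower and 0 higher, beside 12.6% of the 15971 genes to which it gave an adjusted p. With upper-quartile factors the median over all genes moved from -0.02 to -0.13, and 20 members and 1557 of all genes fell while 656 of all genes rose, beside 1012 and 934 with TMM.

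**Figure D1:**
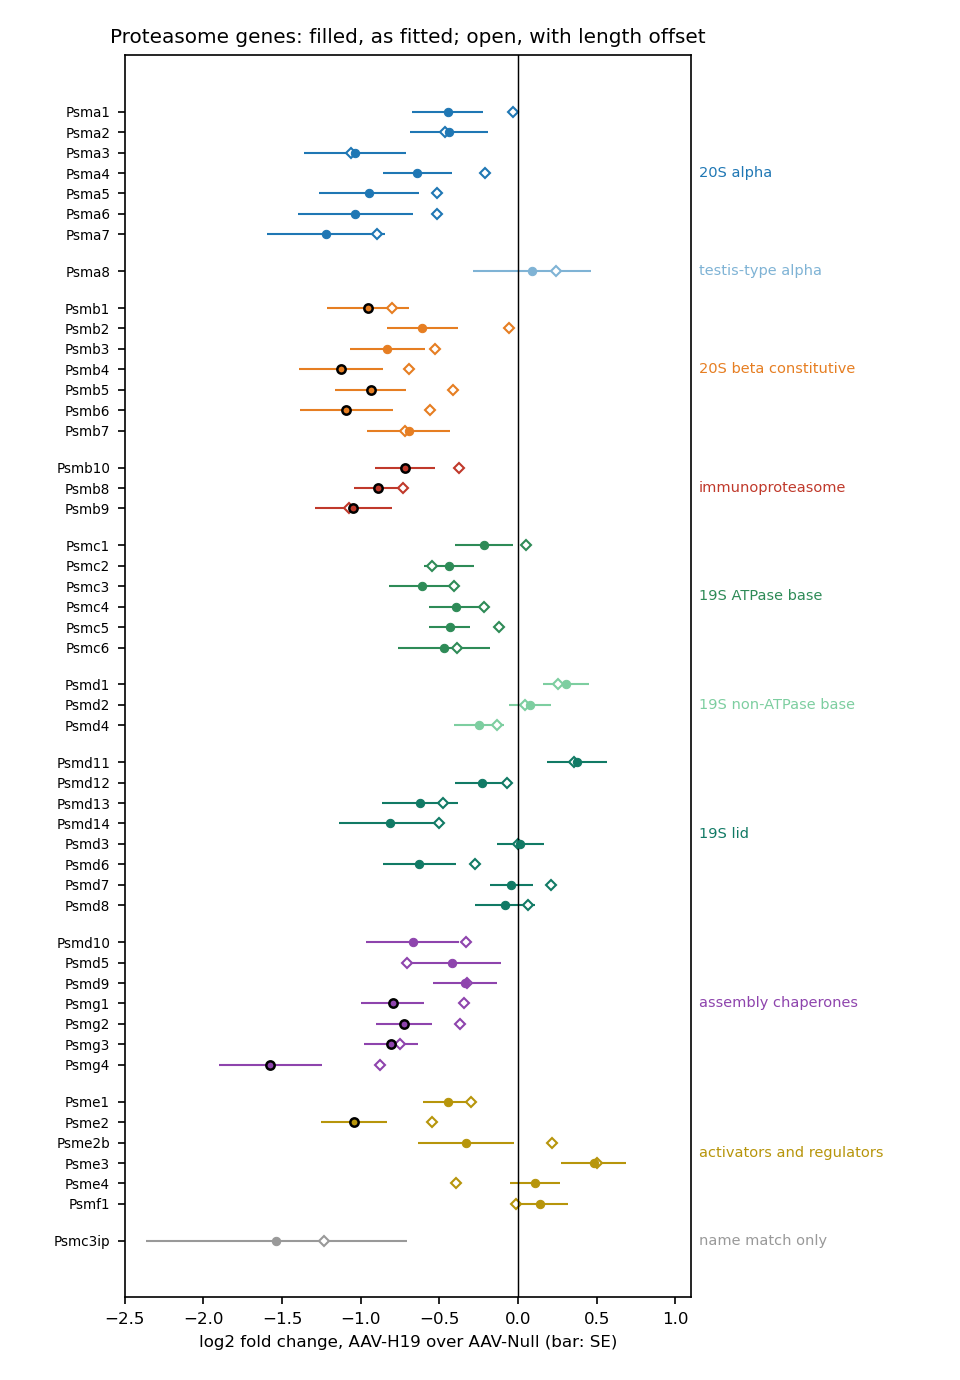
Log2 fold change of AAV-H19 over AAV-Null for the 49 tested members (x axis; filled points with SE bars, n = 4 livers a group), grouped by class (y axis); open diamonds are the values with the length offset and black rims mark the 12 genes past an adjusted p of 0.05. All 14 points of the 20S core lie left of 0, while the 19S points spread on both sides.

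The length offset took away most of these calls. With it, Psmb8 alone passed, at a log2 change of -0.73 ± 0.14 (SE, adjusted p = 0.0341 by edgeR), beside 1.06% of all genes that fell in that fit. The median over the members was then -0.37, beside -0.06 over all genes, and 39 of 49 were negative, beside 9125 of all 16672 genes. Without AAV-Null 22 that median was -0.21, and without both AAV-Null 22 and 24 it was -0.07, beside -0.04 over all genes, with 29 of 49 negative. At an unadjusted p under 0.05, the offset fit without both of these livers had 12 members lower and 3 higher. With all 8 livers kept, the offset fit had 17 members lower and 1 higher at that threshold. No count over all genes is given here for the offset fits at that threshold. The groups did not overlap in CPM in 27 members, 24 of them lower and 3 higher in AAV-H19, beside 11.6% and 12.1% of all genes. After the offset the groups stood apart, lower in AAV-H19, in 16 members, beside 8.96% of all genes.

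Within classes of transcript length the members sat at or below the other genes. Of 6 members with transcripts of up to 1000 nt, 4 fell (median log2 change -0.99), as did 39.3% of all protein-coding genes of that length (median -0.96). Of 12 members between 1000 and 1500 nt, 4 fell (median -0.72), beside 17.4% of all such genes (median -0.53). Between 1500 and 2000 nt, 2 of 14 members fell (median -0.53), beside 7.74% of all (median -0.30). Between 2000 and 3000 nt, 2 of 11 members fell (median -0.44), beside 4.16% of all (median -0.10). These 2 were Psmb9 and Psmg3, at 2884 and 2401 nt by the longest transcript, which sets the classes. By the principal transcript of the APPRIS annotation they had 1352 and 883 nt, so their class depends on the transcript chosen. The medians of the shortest members and of all genes of their length were close, and in the 3 classes from 1000 to 3000 nt the median of the members was the lower one, a description with no test. None of the 6 longer members passed the edgeR test, and the 5 of 3000 to 5000 nt had a median of 0.08, beside 0.14 for all genes of that length.

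**Figure D2:**
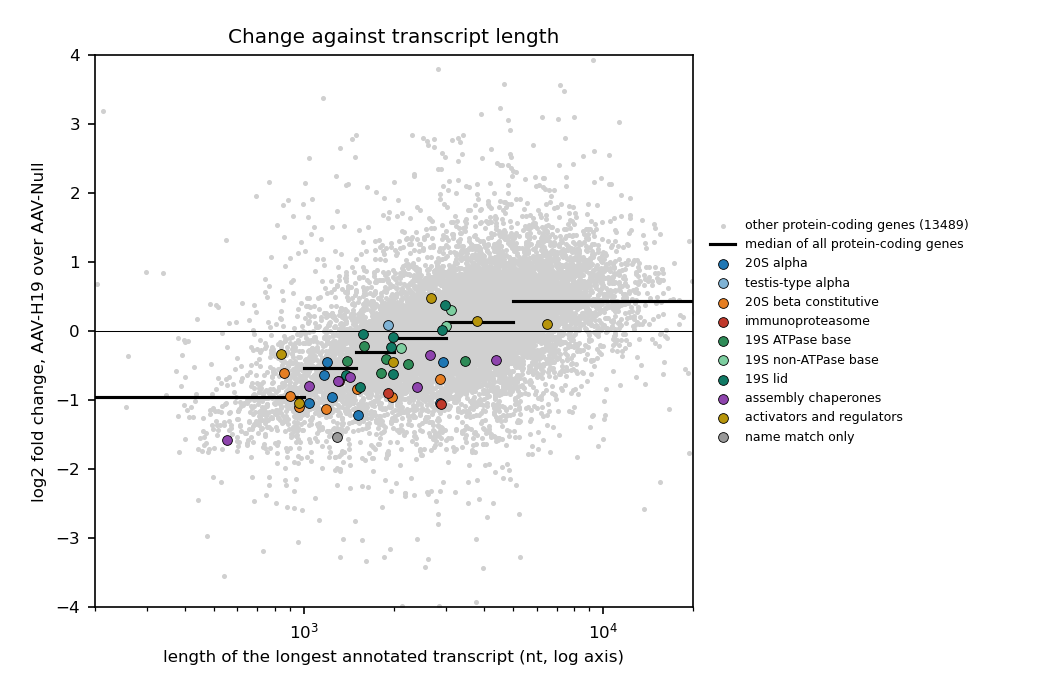
Log2 fold change of AAV-H19 over AAV-Null (y axis) against the length of the longest annotated transcript (x axis, nt, log scale) for protein-coding genes (grey) and the proteasome members (coloured by class); black lines are the medians of all protein-coding genes in 6 length classes, and the axes leave out a few genes beyond them. The lines climb from -0.96 to 0.44, and most members under 3000 nt lie near or under them.

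The members' levels also differed between livers of the same group. AAV-Null 22 was the highest of all 8 libraries in 38 of 49 members, beside 26.5% of all genes, and AAV-Null 24 was second to it within the group in 31 members, beside 18.0% of all genes. Relative to each gene's mean over the 8 livers, the median log2 level of the 14 core genes was 1.06 in AAV-Null 22, 0.56 in AAV-Null 24, -0.06 in AAV-Null 21 and -0.12 in AAV-Null 23. In the AAV-H19 livers 25, 26, 27 and 28 it was -0.43, -0.40, -0.58 and -0.16. AAV-H19 28 was the highest of its group in 37 of 49 members, beside 29.2% of all genes. The median SD of log2 CPM of a member was 0.41 in AAV-Null and 0.157 in AAV-H19, beside 0.367 and 0.221 over all genes.

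Leaving out single livers changed the calls. Without AAV-Null 22, 12 members fell, 10 of them shared with the full set: Psmb1 and Psmb10 no longer passed, and Psmb3 and Psmc5 did. The median of the members was then -0.38. Without both AAV-Null 22 and 24, an alternative added after seeing the data, 9 members fell, Psmd1 rose by 0.45 (log2), and the median was -0.19. Without AAV-Null 24, 5 members fell, and without AAV-H19 28, 6 fell. Without AAV-H19 25, 26 or 27, 0 members passed by edgeR, with 21, 21 and 20 lower at an unadjusted p under 0.05 and medians of -0.61, -0.60 and -0.59. The number of all genes that fell dropped in these 3 fits as well, from 1012 to 53, 98 and 27. No member passed in all 8 fits that left out a liver, and Psmb8, Psmg3, Psmg4 and Psme2 passed in 5.

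**Figure D3:**
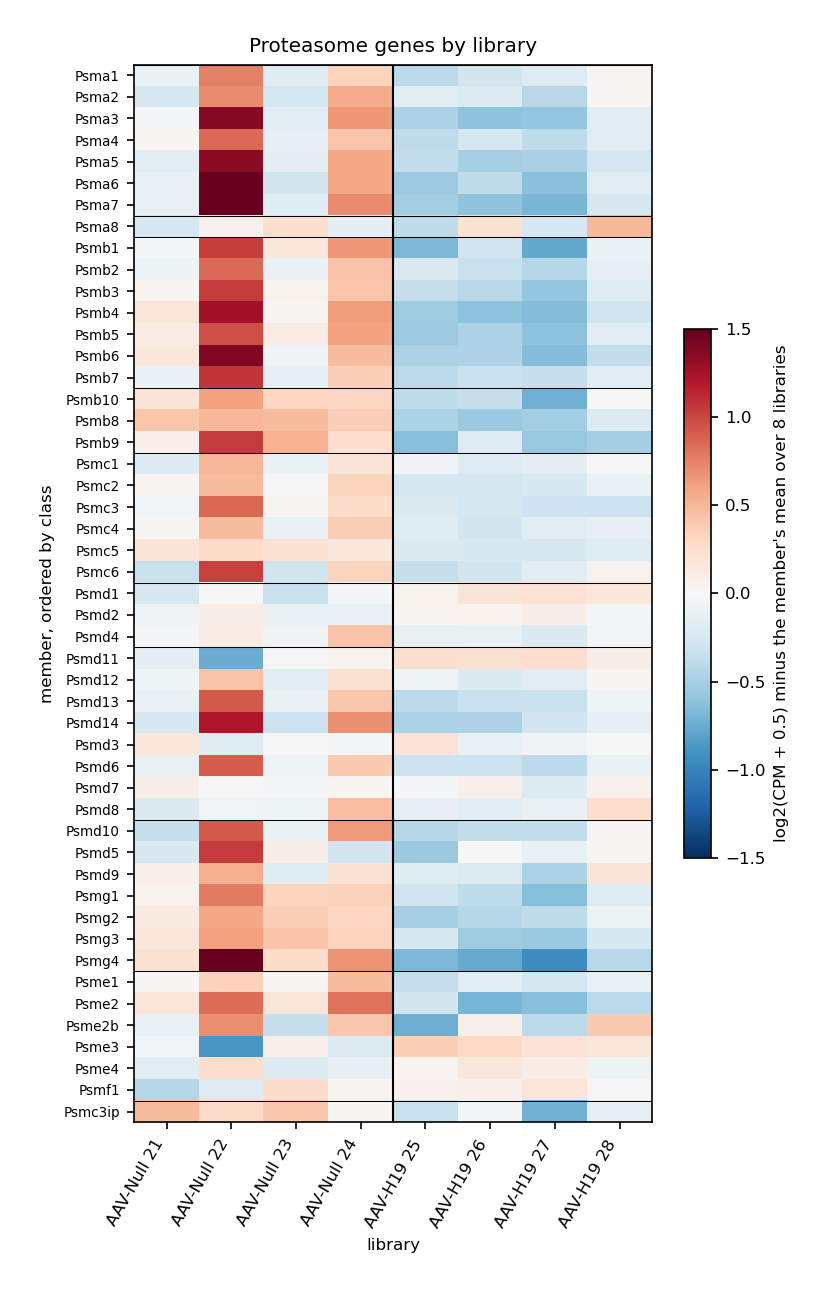
Level of each tested member (rows, by class) in each liver (columns), as log2(CPM + 0.5) minus the member's mean over the 8 livers; colours are clipped at 1.5 either side of 0. AAV-Null 22 and then AAV-Null 24 are darkest red over the core genes, where AAV-Null 21 and 23 lie near 0 and the AAV-H19 livers are mostly blue.

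Of the constitutive beta subunits, 4 of 7 fell, and in all 7 every AAV-H19 liver was below every AAV-Null liver. Psmb5 encodes the chymotrypsin-like site (chromosome 14, 54614119 to 54618022, minus strand, GRCm38). It was at 136, 247, 136 and 192 CPM in AAV-Null 21 to 24 and at 85.9, 90.2, 82.2 and 113 CPM in AAV-H19 25 to 28. The highest AAV-H19 liver was below the lowest AAV-Null liver, and AAV-Null 22 and 24 were above the rest of their group. The AAV-Null mean was 178 ± 53.2 CPM and the AAV-H19 mean 92.8 ± 13.8 CPM (SD, n = 4 each). It fell by 0.94 ± 0.23 (log2 change and SE, adjusted p = 0.0326 by edgeR), and had a log2 change of -0.41 with the length offset (adjusted p = 0.142).

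Psmb6 encodes the caspase-like site (chromosome 11, 70525367 to 70527858, plus strand). Its levels were 153, 360, 132 and 191 CPM in AAV-Null 21 to 24 and 98.98, 99.4, 87.1 and 107 CPM in AAV-H19 25 to 28. The AAV-H19 livers lay close together, and the AAV-Null mean of 209 ± 103.5 CPM rested in large part on AAV-Null 22. Psmb6 fell by 1.09 ± 0.30 (log2 change and SE, adjusted p = 0.0437 by edgeR), and by 0.70 without AAV-Null 22 (adjusted p = 0.0282). With the length offset its log2 change was -0.56 (adjusted p = 0.155).

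Psmb7, the trypsin-like site, had the same order of AAV-Null livers but did not pass. It was at 127, 285.5, 124 and 172.5 CPM in AAV-Null 21 to 24 and at 103, 107, 106 and 121 CPM in AAV-H19 25 to 28. The groups did not overlap, but AAV-H19 28 was only just below AAV-Null 23. Its log2 change was -0.70 ± 0.26 (SE, adjusted p = 0.109 by edgeR), and -0.37 without AAV-Null 22. With the length offset it was -0.72 by the longest transcript (adjusted p = 0.161) and -0.26 by the APPRIS principal transcript (adjusted p = 0.481). Exons of Psmb7 overlap those of Nek6 on the other strand, and the sources do not say whether strand was used in counting.

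The structural beta subunits Psmb1 and Psmb4 fell, as did the catalytic Psmb5 and Psmb6. Psmb4 had the highest mean CPM of all members in AAV-Null livers and was at 231, 491, 208 and 314 CPM in AAV-Null 21 to 24 and 141, 133, 130.2 and 166 CPM in AAV-H19 25 to 28. No AAV-H19 liver reached the lowest AAV-Null liver. It fell by 1.13 ± 0.27 (log2 change and SE, adjusted p = 0.0318 by edgeR; length offset log2 change -0.69, adjusted p = 0.0834). Psmb1 was at 139, 290.5, 158 and 221 CPM in AAV-Null 21 to 24 and 88.0, 115, 82.8 and 132 CPM in AAV-H19 25 to 28. AAV-H19 28 came close to AAV-Null 21, and Psmb1 fell by 0.95 ± 0.26 (SE, adjusted p = 0.0452 by edgeR), with log2 changes of -0.73 without AAV-Null 22 (adjusted p = 0.0622) and -0.80 with the length offset (adjusted p = 0.0947). Psmb2 and Psmb3, also structural, had log2 changes of -0.61 (adjusted p = 0.101 by edgeR) and -0.83 (adjusted p = 0.05077), and the groups did not overlap in either.

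**Figure D4:**
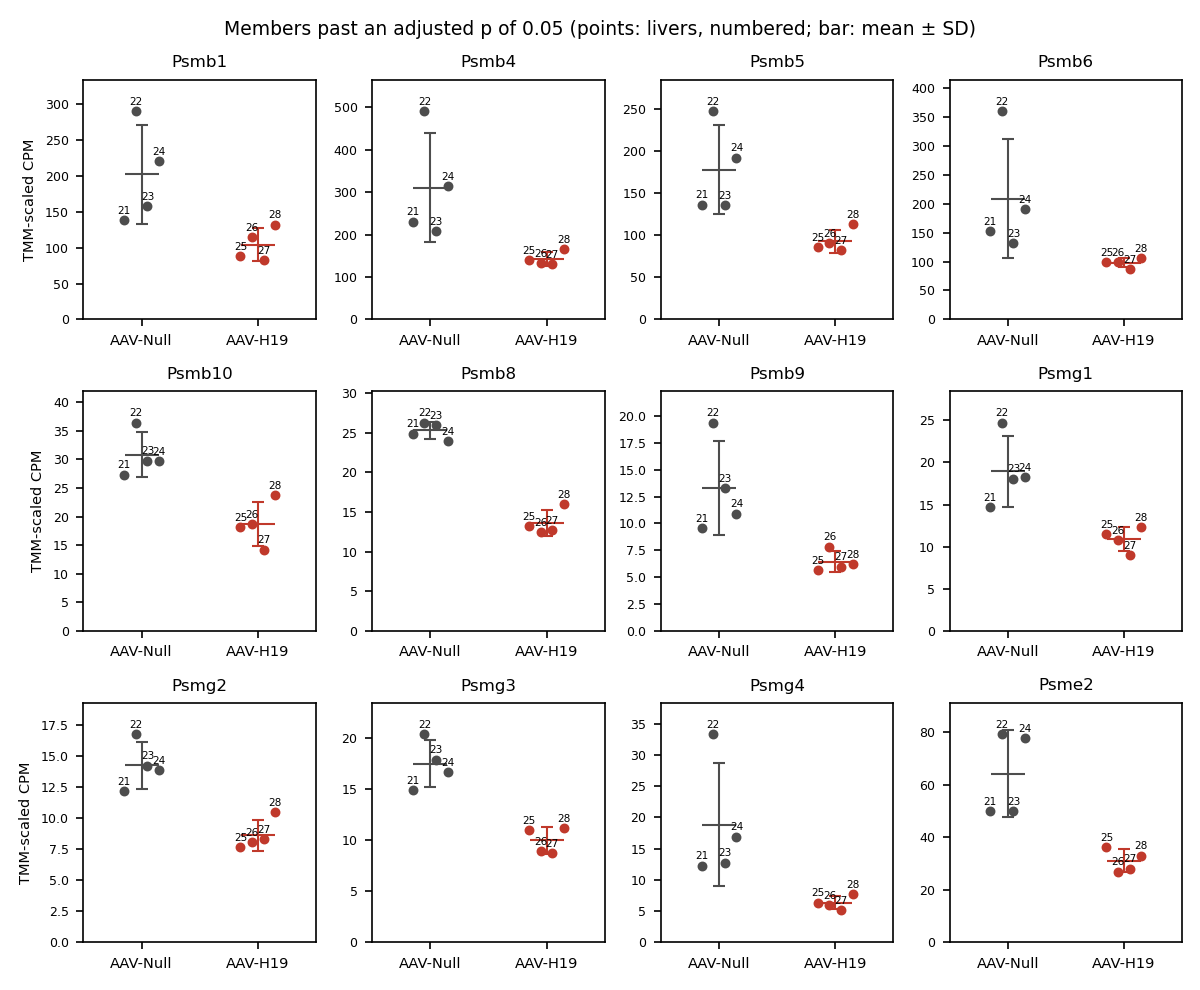
CPM of the 12 members past an adjusted p of 0.05 in each liver (points, numbered; y axes start at 0), with mean and SD bars for the 4 AAV-Null and 4 AAV-H19 livers. The groups do not overlap in any panel, AAV-Null 22 is the highest AAV-Null point in all 12, and Psmb8 has the smallest SD of all panels within AAV-Null.

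None of the 7 alpha subunits passed the edgeR test, although all 7 log2 changes were negative, from -1.22 to -0.44 with a median of -0.95, and 5 had an unadjusted p under 0.05. By DESeq2, 5 of them passed: Psma3, Psma4, Psma5, Psma6 and Psma7. Psma7 had the largest change of the class, at 86.0, 288, 81.6 and 152 CPM in AAV-Null 21 to 24 and at 64.2, 60.8, 57.6 and 78.2 CPM in AAV-H19 25 to 28. The groups did not overlap, but AAV-Null 21 and 23 were only just above AAV-H19 28. Its log2 change was -1.22 ± 0.38 (SE, adjusted p = 0.0616 by edgeR), and -0.72 without AAV-Null 22 (adjusted p = 0.0801). With the length offset it was -0.90 by the longest and -0.63 by the APPRIS principal transcript (adjusted p = 0.145 and 0.223). Psma6 reached 358 CPM in AAV-Null 22, with the rest of that group between 103 and 186 CPM and the AAV-H19 livers between 80.8 and 112 CPM. The median of the alpha subunits was -0.54 without AAV-Null 22 and -0.51 with the length offset, and that of the whole core was -0.94, -0.55 without AAV-Null 22 and -0.52 with the offset.

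All 3 immunoproteasome subunits fell. Psmb8 replaces Psmb5 (chromosome 17, 34197721 to 34201454, plus strand). Psmb8 was at 24.9, 26.3, 25.99 and 23.98 CPM in AAV-Null 21 to 24 and at 13.2, 12.5, 12.8 and 15.97 CPM in AAV-H19 25 to 28. The livers of each group lay close together and the groups were well apart, and AAV-Null 22 and 24 did not stand above 21 and 23. The AAV-Null mean of 25.3 ± 1.05 CPM was 1.86-fold the AAV-H19 mean of 13.6 ± 1.61 CPM (SD, n = 4 each). Psmb8 fell by 0.89 ± 0.15 (log2 change and SE, adjusted p = 0.0134 by edgeR). After the length offset its levels were 22.1 to 25.3 CPM in AAV-Null livers, all above the 13.2 to 16.4 CPM of AAV-H19 livers. Without the offset, the edgeR adjusted p was 0.0115 to 0.0671 over the 8 fits that left out a liver. With the offset, Psmb8 passed without AAV-Null 22 and without AAV-Null 24. It did not pass with the offset when any other single liver was left out.

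Psmb9 replaces Psmb6 and lies beside the gene of the peptide transporter Tap1, on the opposite strand, with overlapping exons. Psmb9 was at 9.57, 19.4, 13.3 and 10.9 CPM in AAV-Null 21 to 24 and at 5.66, 7.85, 5.98 and 6.22 CPM in AAV-H19 25 to 28. AAV-Null 22 was again the highest, followed here by AAV-Null 23. Psmb9 fell by 1.05 ± 0.24 (log2 change and SE, adjusted p = 0.0306 by edgeR), with log2 changes of -1.07 with the length offset (adjusted p = 0.0541) and -0.72 with the offset by the APPRIS principal transcript (adjusted p = 0.0978). Its neighbour Tap1 had a log2 change of 0.28 ± 0.24 (adjusted p = 0.472 by edgeR) and did not pass.

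Psmb10, which replaces Psmb7, was at 27.3, 36.4, 29.8 and 29.7 CPM in AAV-Null 21 to 24 and at 18.2, 18.7, 14.2 and 23.8 CPM in AAV-H19 25 to 28. AAV-H19 28 was the highest of its group and stayed below all AAV-Null livers. Psmb10 fell by 0.72 ± 0.19 (SE, adjusted p = 0.0397 by edgeR), with log2 changes of -0.63 without AAV-Null 22 (adjusted p = 0.0518) and -0.37 with the length offset (adjusted p = 0.199). Immunoproteasome genes are high in immune cells, and the Kupffer cell markers given above moved in the same direction. Lymphocyte markers were scarce: summed over 11 genes they reached 5.69 to 7.87 CPM in AAV-Null livers, beside 2.81 to 4.91 CPM in the AAV-H19 group, 8 of the 11 were at 0 in at least 1 library, and 1 of the 7 tested, Trbc2, fell. Trbc2 did not pass with the length offset (adjusted p = 0.204 by edgeR). The part of these cells in the fall of Psmb8, Psmb9 and Psmb10 was not tested.

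The balance of immune to constitutive active sites was compared as the log2 ratio of CPM per kb in each liver. For Psmb8 over Psmb5 the ratio was -3.31, -4.09, -3.25 and -3.86 in AAV-Null 21 to 24 and -3.56, -3.71, -3.54 and -3.68 in AAV-H19 25 to 28. AAV-Null 22 and 24 had the lowest ratios, and the AAV-H19 livers lay between the 2 pairs of AAV-Null livers. The means were -3.62 ± 0.42 and -3.62 ± 0.08 (SD, n = 4 each), a difference of 0.003 (exact two-sided permutation test, p = 0.971). The ratio of Psmb9 to Psmb6 differed by -0.03 on the log2 scale (exact permutation p = 0.914) and that of Psmb10 to Psmb7 by -0.12 (exact permutation p = 0.629). Adjusted over the 3 ratios, each p was 0.971, and the SD within AAV-Null was 0.40 to 0.42. Leaving out a liver moved the 3 differences between -0.152 and 0.13, between -0.126 and 0.174, and between -0.299 and 0.004. No shift in the balance was detectable beside this spread in these ratios, which carry no length offset. With the offset, the log2 changes were -0.73 for Psmb8 and -0.41 for Psmb5, and -1.07 for Psmb9 and -0.56 for Psmb6. Those of Psmb10 and Psmb7 were -0.37 and -0.72, the reverse order. The balance with the offset was not tested.

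None of the 17 members of the 19S cap passed the edgeR test, while Sem1, a lid subunit outside the symbol rule, did. Of the 17, 7 had an unadjusted p under 0.05, and the median log2 change was -0.25, and -0.12 with the length offset or without AAV-Null 22. The 6 ATPases of the base were all negative, from -0.61 to -0.22, and DESeq2 called Psmc2, Psmc3 and Psmc5 lower. The largest was Psmc3, at 120.1, 225, 126 and 149 CPM in AAV-Null 21 to 24 and at 106, 103, 99.4 and 98.4 CPM in AAV-H19 25 to 28. The groups did not overlap, and its log2 change was -0.61 ± 0.21 (SE, adjusted p = 0.0855 by edgeR), -0.38 without AAV-Null 22 (adjusted p = 0.0944) and -0.41 with the length offset (adjusted p = 0.239). Exons of Psmc3 overlap those of Slc39a13 on the other strand.

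Psmc5, also an ATPase of the base, had a narrow spread in both groups. It was at 92.7, 98.6, 95.1 and 90.8 CPM in AAV-Null 21 to 24 and at 69.9, 69.0, 68.6 and 71.4 CPM in AAV-H19 25 to 28, with a clear gap between the groups, and AAV-Null 24 was the lowest of its group. It was singled out after its values were seen. Its log2 change was -0.43 ± 0.13 (SE, adjusted p = 0.0545 by edgeR), and -0.12 with the length offset (adjusted p = 0.634). Without AAV-Null 22, Psmc5 was among the members that passed.

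The non-ATPase subunits of the base had log2 changes on both sides of 0, and none passed. Psmd1, a scaffold, was at 79.8, 93.7, 74.4 and 92.04 CPM in AAV-Null 21 to 24 and at 97.8, 108, 109.7 and 105 CPM in AAV-H19 25 to 28. Every AAV-H19 liver was above every AAV-Null liver, the reverse of the core genes, with a log2 change of 0.31 ± 0.14 (SE, adjusted p = 0.188 by edgeR) that did not pass, and 0.26 with the length offset (adjusted p = 0.334). Psmd2, the other scaffold, had a log2 change of 0.08, which was negative with upper-quartile factors, and the ubiquitin receptor gene Psmd4 had one of -0.25; neither passed.

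In the lid, the 8 genes had log2 changes from -0.81 to 0.38 with a median of -0.16. Psmd14, the deubiquitinase, had the largest, at 46.0, 125.9, 43.0 and 87.6 CPM in AAV-Null 21 to 24 and at 39.0, 39.3, 44.3 and 49.6 CPM in AAV-H19 25 to 28. Here the groups overlapped, and only AAV-Null 22 and 24 were above the AAV-H19 livers. Its log2 change of -0.81 ± 0.33 (SE, adjusted p = 0.126 by edgeR) was -0.46 without AAV-Null 22, -0.05 without both AAV-Null 22 and 24, and -0.50 with the length offset (adjusted p = 0.324). Psmd6 and Psmd13 were at -0.63 and -0.62 on the log2 scale, and Psmd11 at 0.38 with AAV-H19 livers at 86.9 to 97.9 CPM above the AAV-Null range of 48.6 to 85.2 CPM. Exons of Psmd13 overlap those of Sirt3 on the other strand. Psmd3, Psmd7 and Psmd8 had log2 changes of 0.02, -0.04 and -0.09, and that of Psmd3 was negative with upper-quartile factors.

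Of the 7 assembly chaperones, 4 fell, and these were Psmg1, Psmg2, Psmg3 and Psmg4, the genes for chaperones that build the alpha ring. Psmg4 (chromosome 13, 34162964 to 34178173, plus strand) was at 12.3, 33.3, 12.8 and 16.9 CPM in AAV-Null 21 to 24 and at 6.38, 5.98, 5.21 and 7.69 CPM in AAV-H19 25 to 28. It fell by 1.58 ± 0.33 (log2 change and SE, adjusted p = 0.0234 by edgeR), the largest change of any member. The groups were apart, and AAV-Null 22 was far above the rest of its group. Without AAV-Null 22 it fell by 1.153 (adjusted p = 0.0131), and its log2 change was -0.88 with the length offset (adjusted p = 0.0543). Its longest annotated transcript, 555 nt, is the shortest among the 49 tested members.

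Psmg3 was at 14.9, 20.3, 17.9 and 16.7 CPM in AAV-Null 21 to 24 and at 11.0, 8.92, 8.75 and 11.2 CPM in AAV-H19 25 to 28. It fell by 0.81 ± 0.17 (SE, adjusted p = 0.0252 by edgeR) and had a log2 change of -0.75 with the length offset (adjusted p = 0.0501). That value was -0.29 by the APPRIS principal transcript (adjusted p = 0.301), and without the offset it was -0.47 with overlapping genes summed (adjusted p = 0.0774). Psmg3 overlaps Gm26938 on the same strand, which was at 0, and that sum also holds Tmem184a. Psmg1 was at 14.7, 24.7, 18.1 and 18.2 CPM in AAV-Null 21 to 24 and at 11.4, 10.8, 8.96 and 12.3 CPM in AAV-H19 25 to 28. Its partner Psmg2 was at 12.2, 16.8, 14.2 and 13.9 CPM in AAV-Null 21 to 24, and the AAV-H19 livers had 7.67, 8.08, 8.34 and 10.5 CPM. In both genes all AAV-H19 livers were below all AAV-Null livers, with falls of 0.80 ± 0.20 and 0.72 ± 0.18 (log2 change and SE, adjusted p = 0.0345 and 0.0336 by edgeR). With the length offset neither passed, at log2 changes of -0.34 and -0.37 (adjusted p = 0.211 and 0.187). The chaperones of the base, Psmd5, Psmd9 and Psmd10, had log2 changes of -0.42, -0.34 and -0.67 and did not pass.

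The activators and regulators did not move as a group, with 1 of 6 called, 3 of 6 negative and a median log2 change of -0.11. Psme1 and Psme2 encode the subunits of PA28, the interferon-inducible cap that works with the immunoproteasome. Psme2 was at 49.9, 79.1, 49.8 and 77.5 CPM in AAV-Null 21 to 24 and at 36.2, 26.9, 28.1 and 33.0 CPM in AAV-H19 25 to 28. The AAV-Null livers formed 2 levels, 22 and 24 above 21 and 23, and all were above the AAV-H19 livers. It fell by 1.05 ± 0.21 (log2 change and SE, adjusted p = 0.0218 by edgeR), and its log2 change was -0.55 with the length offset (adjusted p = 0.0834). Psme2b is a near copy of Psme2 whose reads the counting may have split, and had a log2 change of -0.33 that did not pass, so both values are uncertain. Psme1 had a log2 change of -0.44 ± 0.16 (SE, adjusted p = 0.09826 by edgeR), and -0.30 with the length offset (adjusted p = 0.26), with no overlap between the groups. Its exons overlap those of Emc9 on the other strand.

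Psme3, the nuclear activator PA28 gamma, was on the other side of 0. It was at 56.1, 31.4, 61.1 and 49.9 CPM in AAV-Null 21 to 24 and at 74.2, 71.4, 66.4 and 65.2 CPM in AAV-H19 25 to 28. All AAV-H19 livers were above all AAV-Null livers, of which 22 was the lowest, and the log2 change of 0.48 ± 0.21 (SE, adjusted p = 0.1502 by edgeR) did not pass, nor did that of 0.50 with the length offset (adjusted p = 0.168). Psme4, which encodes the PA200 activator, and Psmf1, an inhibitor of the core, had log2 changes of 0.11 and 0.14.

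The remaining members were barely expressed. Psma8, the alpha subunit of the testis proteasome, was at 0.75, 1.06, 1.28 and 0.85 CPM in AAV-Null 21 to 24 and at 0.64, 1.24, 0.74 and 1.58 CPM in AAV-H19 25 to 28. The groups overlapped throughout, with a log2 change of 0.09 ± 0.38 (SE, adjusted p = 0.896 by edgeR) that was negative with upper-quartile factors. Psmc3ip was at 0.63, 0.50, 0.58 and 0.33 CPM in AAV-Null 21 to 24, and the AAV-H19 livers had 0.15, 0.31, 0 and 0.25 CPM. These levels rest on at most 55 units, or few counts, and the log2 change of -1.54 ± 0.83 (SE, adjusted p = 0.245 by edgeR) did not pass. Its exons overlap those of Mlx on the other strand. Pseudogenes named after Psmb5, Psmb6 and Psmb7 reached at most 0.0938 CPM.

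Per kb of transcript, the core genes had the highest median level of the classes in both groups. The 14 core genes had levels of 34.8 to 263 CPM per kb in AAV-Null, with a median of 132, and of 21.1 to 123 CPM per kb in AAV-H19, with a median of 72.2. The 17 genes of the cap had medians of 51.7 and 45.4 CPM per kb. The immunoproteasome genes had medians of 15.5 and 8.36 CPM per kb, and the assembly chaperones 18.1 and 10.4 CPM per kb. These medians share the dependence on AAV-Null 22 and on length given above.

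The proximal promoters of 3 members that fell are shown for the motifs they hold: the core of the antioxidant response element, TGACNNNGC, which NFE2L1 and NFE2L2 bind, and the short form of the interferon-stimulated response element, GAAANNGAA. Sequences are from RefSeq on GRCm38.p6, read 5′ to 3′ on the gene's strand from 100 bases before to 50 bases after the annotated start, with the motif in capitals. The windows are chr14:54617946-54618095 (minus) for Psmb5, chr11:70525257-70525406 (plus) for Psmb6 and chr13:34162864-34163013 (plus) for Psmg4.
Psmb5: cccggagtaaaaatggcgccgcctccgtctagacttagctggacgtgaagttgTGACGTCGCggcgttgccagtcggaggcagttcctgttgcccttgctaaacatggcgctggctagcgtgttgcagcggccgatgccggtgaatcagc
Psmb6: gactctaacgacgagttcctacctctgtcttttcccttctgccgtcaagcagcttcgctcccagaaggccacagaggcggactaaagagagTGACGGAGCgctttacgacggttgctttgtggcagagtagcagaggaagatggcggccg
Psmg4: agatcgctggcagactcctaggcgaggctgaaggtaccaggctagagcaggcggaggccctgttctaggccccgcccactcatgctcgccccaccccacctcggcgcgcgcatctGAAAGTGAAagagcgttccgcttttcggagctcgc
In Psmb5 and Psmb6 the antioxidant motif starts at -47 and -9, and in Psmg4 the interferon motif starts at 16, counted from the start that RefSeq annotates. For Psmb5 and Psmb6 that start differs by some bases from the GENCODE gene end given above, and for Psmg4 it is the same.

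Over the full windows of 250 bases before to 50 bases after the start, both strands, 42 members had an entry, with 45 windows. The antioxidant motif was in 13.3% of these and in 12.4% of all 32851 promoter windows, in Psmb5, Psmb6, Psmc6, Psmd9, Psmd12 and Psme4. The interferon motif was in 15.6% of member windows and 8.56% of all, in Psmb3, Psmb4, Psmc2, Psmd4, Psmd9, Psme1 and Psmg4. The members' promoters were rich in CpG, with a median of 19 CpG per window, beside 7 in all windows, and a median GC content of 57.3%, beside 52.7%.

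Of 18 partner genes of the proteasome outside the symbol rule, 17 were in the table, and Paaf1 was not analysed here. Of the 17, 2 fell and 1 rose, beside 6.07% and 5.6% of all genes, and 14 did not pass. Sem1, a small subunit of the lid, was at 59.2, 57.6, 54.9 and 64.8 CPM in AAV-Null 21 to 24 and at 35.2, 31.9, 29.9 and 35.9 CPM in AAV-H19 25 to 28. All AAV-H19 livers were far below the AAV-Null livers, which lay close together. It fell by 0.83 ± 0.14 (log2 change and SE, adjusted p = 0.0134 by edgeR), and also with the length offset (by 0.75, adjusted p = 0.0272), but did not pass with the offset by the APPRIS principal transcript (log2 change -0.57, adjusted p = 0.0562). Pomp, the chaperone that completes the core particle, fell by 0.72 ± 0.18 (SE, adjusted p = 0.0365 by edgeR) and had means of 97.9 ± 18.9 CPM in AAV-Null livers and 59.4 ± 7.90 CPM in AAV-H19 livers (SD, n = 4 each), with a length offset log2 change of -0.89 (adjusted p = 0.0501). Ube3c, a ubiquitin ligase that binds the proteasome, rose by 0.74 ± 0.14 (SE, adjusted p = 0.0181 by edgeR), with a log2 change of 0.39 with the length offset (adjusted p = 0.186). The median of the 17 partners was 0.13.

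The transcription factor NFE2L1 is cut by the protease DDI2 and degraded through SEL1L and SYVN1, and it drives proteasome genes. In the list of 10 genes around it, 0 fell and 3 rose by edgeR, beside 6.07% and 5.6% of all genes. At an unadjusted p under 0.05 there were 3 of the 10, beside 4968 of all 16672 genes. Sel1l rose by 1.43 ± 0.25 (log2 change and SE, adjusted p = 0.0154 by edgeR). Its AAV-Null mean was 55.4 ± 13.97 CPM and its AAV-H19 mean 149 ± 40.95 CPM (SD, n = 4 each), and it also passed with the length offset (log2 change 0.98, adjusted p = 0.0390). Syvn1 rose by 1.60 ± 0.37 and Ddi2 by 0.77 ± 0.19 (SE, adjusted p = 0.0304 and 0.0344 by edgeR), and neither passed with the offset (adjusted p = 0.0578 and 0.361). Nfe2l1 itself was at 11.8, 9.37, 102 and 11.5 CPM in AAV-Null 21 to 24 and at 28.4, 36.0, 35.9 and 117.3 CPM in AAV-H19 25 to 28. One liver in each group, AAV-Null 23 and AAV-H19 28, stood far above the others, and the log2 change of 0.69 ± 0.81 (SE, adjusted p = 0.605 by edgeR) did not pass. It was 2.30 without AAV-Null 23 (adjusted p = 0.0294 by edgeR) and -0.01 without AAV-H19 28 (adjusted p = 0.996 by edgeR). Nfe2l2 had a log2 change of -0.12 ± 0.17 (SE, adjusted p = 0.661 by edgeR).

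Among ubiquitin genes, Rps27a, a short gene whose product fuses ubiquitin to a ribosomal protein, fell by 1.31 ± 0.37 (SE, adjusted p = 0.0494 by edgeR). Uba1 and Uba6, which encode the enzymes that activate ubiquitin, rose by 0.76 ± 0.15 and 0.80 ± 0.20 (SE, adjusted p = 0.0205 and 0.0355 by edgeR). None of these 3 genes passed with the length offset (adjusted p = 0.0510 to 0.387).

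In the list of 19 genes of the MHC class I pathway and its interferon regulators, 0 fell by edgeR and 2 rose. Over all genes, 6.07% fell and 5.6% rose. At an unadjusted p under 0.05 there were 7 of the 19, beside 4968 of all 16672 genes. Nlrc5, a transcriptional activator of MHC class I genes, rose by 0.88 ± 0.25 (log2 change and SE, adjusted p = 0.0499 by edgeR), with an AAV-Null mean of 8.73 ± 1.90 CPM and an AAV-H19 mean of 16.1 ± 4.52 CPM (SD, n = 4 each). Its log2 change was 0.35 with the length offset (adjusted p = 0.407). Calr, a chaperone of MHC class I assembly, rose by 0.57 ± 0.15 (SE, adjusted p = 0.0391 by edgeR), and by 0.67 with the length offset (adjusted p = 0.0466), which by the APPRIS principal transcript was 0.61 (adjusted p = 0.0593). Of the 19 log2 changes 6 were negative. Those of the interferon regulators Irf1 and Ifngr1 were -0.68 and -0.96 (adjusted p = 0.0693 and 0.0759 by edgeR), and the groups overlapped in both. Tapbp, Ifngr2 and Jak1 had positive log2 changes of 1.053, 0.61 and 0.395 (adjusted p = 0.0518, 0.0580 and 0.0795 by edgeR). In each of them every AAV-H19 liver was above every AAV-Null liver. None of these named genes passed.

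**Figure D5:**
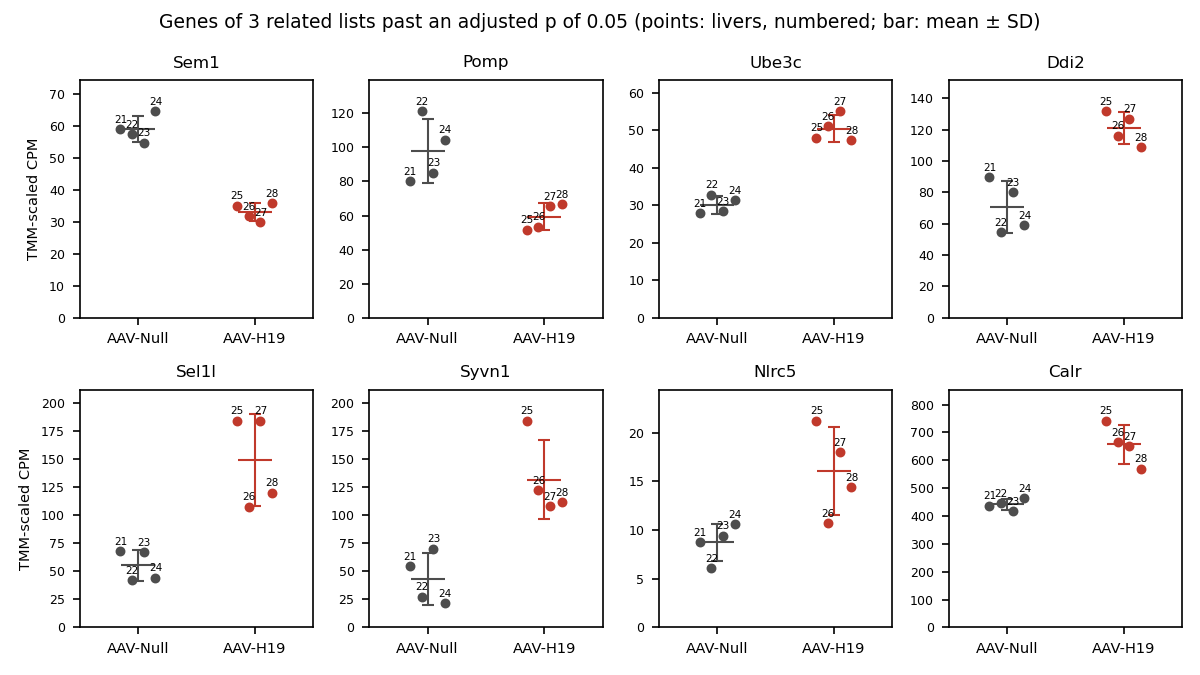
CPM in each liver (points, numbered; y axes start at 0) of the 8 genes of the partner, NFE2L1 and MHC class I lists past an adjusted p of 0.05, with mean and SD bars for the 4 AAV-Null and 4 AAV-H19 livers. Sem1 and Pomp are lower in AAV-H19 livers, and the other 6 are higher.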

How the data were processed

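Per the labels' protocols, liver RNA came from Direct-zol kits, and the poly(A) libraries from a TruSeq kit that keeps strand. HISAT and StringTie are named in the submitters' processing notes, without versions; the build, the annotation and the use of strand in counting were not given in these sources. The authors deposited estimated counts (expected counts) per gene, with no normalization that the values show. They are whole numbers, so rounding changed nothing, and 820 to 990 genes per library had a value of 4 against 124 to 164 with 5. A unit therefore appears to be less than a read, but its size is not known. All 55450 identifiers matched GENCODE M21 (GRCm38), the source of symbols, positions and lengths.

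Genes were filtered with filterByExpr (minimum count 10, total 15), which removed 0.0454% of all units, scaled by TMM and compared with edgeR 4.0.16 (robust glmQLFit and glmQLFTest, R 4.3.3, no covariates). The length offset entered, per library, a natural spline (5 degrees of freedom) of relative log2 CPM on the log length of the longest transcript as a model offset. For ratios, exact two-sided permutation tests ran over all 70 assignments of the livers. The procedure was tested on simulated data. Per-library values were given for members past the threshold, the catalytic subunits and the largest change of each class, and for Psmc5, Psme3 and a few ranges picked after the values were seen. The members and gene lists were chosen with earlier results of these data known. Alternatives were other scalings, filters and thresholds, DESeq2 1.42.0, voom of limma 3.58.1, length and GC offsets, values divided by 4, overlapping genes summed, and leaving out livers. A few results are not reported here.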

Additional observations from a re-analysis of the deposited data

Results flagged for a closer look

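Among the genes named above, 4 values stood far from the rest of their group; chance flags about 1 in 20 groups, and 72 groups of 4 livers were checked. Nfe2l1, the transcription factor that drives proteasome genes, was at 102.0 CPM in AAV-Null 23, where the rest of the group had 9.37 to 11.8 CPM, and at 117.3 CPM in AAV-H19 28, where the rest had 28.4 to 35.97 CPM. Rps27a was at 474.1 CPM in AAV-Null 22, where the rest of the group had 179.3 to 210.2 CPM. Uba1 was at 145.7 CPM in AAV-H19 28, where the rest had 170.1 to 174.0 CPM.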

How the results depend on the processing

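No paired analysis was possible because the groups share no replicate numbers. The count of members that fell was 12; it was 22 at an adjusted p threshold of 0.1 and with DESeq2, 20 with upper-quartile factors, 1 with the length offset by the longest or by the APPRIS principal transcript, and 0 to 17 without 1 liver. With the length offset the count was 0 to 3 without 1 liver, and 3 without both AAV-Null 22 and 24 (Psmb8, Psmb9 and Psmg4). The count that rose was 0, and 1 without both of these livers. Without both, 9 fell, and the other settings gave 12 to 16. For the 12 genes, 172 of 252 alternative values kept their direction and passed, 80 kept the direction and did not pass, and 0 changed sign. These values include the adjusted p threshold of 0.1, which reuses the main fit, so all 12 genes pass there by construction. The log2 change of Psma8 was -0.018 with upper-quartile factors and -0.171 to 0.27 without 1 liver. That of Nfe2l1 was -0.062 without both AAV-Null livers and -0.008 (without AAV-H19 28) to 2.304 (without AAV-Null 23) without 1 liver. The differences in the log2 ratios were -0.152 to 0.13 for Psmb8 to Psmb5, -0.126 to 0.174 for Psmb9 to Psmb6 and -0.299 to 0.004 for Psmb10 to Psmb7 without 1 liver. The cause of these moves was not tested. With 4 livers a group the smallest exact p is 0.0286, and a wide spread within AAV-Null limits what the fits can detect.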
